A study of Homo sapiens with 12 samples.

Results

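The genes described here are 41 members of the NRF2, glutathione and thioredoxin defence, the set of enzymes with which a cell removes peroxides, conjugates electrophiles and supplies the reducing power for both tasks. They were chosen by name, with earlier results of these data known. Each was read from the probe sets annotated with its symbol alone, 79 of the 54613 probe sets on the array. They are 41 of 19775 genes with such a probe set. Total RNA of the human hepatocellular carcinoma lines HEP3B and SNU-449 was hybridised to Affymetrix U133 Plus 2.0 arrays, in 4 groups of 3 arrays. HEP3B cells, labelled sensitive to DAAD-2, received 2 µM DAAD-2 for 72 h, and their controls received 0.1% DMSO for 72 h. SNU-449 cells, labelled resistant, received 20 µM DAAD-2 for 72 h, and their controls again 0.1% DMSO for 72 h. DAAD-2 is a derivative of the diterpene amine dehydroabietylamine that carries an N-acetyl-L-cysteine group. The dose differed between the lines, so a difference between the lines in the effect of DAAD-2 cannot be told apart from a difference between the doses. The labels describe triplicate treatment of each line and do not say whether the triplicates came from separate passages or days, so the p-values below measure the spread between these arrays, part of which may be technical.

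All values are log2 values of the authors' RMA normalization, and where a gene has several probe sets, the one that is brightest on average over the 12 arrays stands for it. A gene is called higher or lower where limma's p-value, after Benjamini-Hochberg adjustment over the whole array, is under 0.05. Array medians lay between 3.71 and 3.85, and within a group the arrays correlated at 0.984 to 0.995 over all probe sets. Of 7 hepatocyte markers, 7 lay above the array median in HEP3B and 5 in SNU-449, with albumin (ALB) at 14.53 ± 0.03 in HEP3B DMSO cells and 3.18 ± 0.18 in SNU-449 DMSO cells (SD, n = 3 arrays each). The fibrinogen chain FGB went the other way, at 6.01 ± 0.13 in HEP3B DMSO cells and 10.06 ± 0.38 in SNU-449 DMSO cells. AFP, APOA1, TTR and SERPINA1 were above the median in SNU-449 DMSO cells only at 4.11 to 5.17. Of 7 mesenchymal markers, 4 lay above the median in HEP3B and 7 in SNU-449. Of these, fibronectin (FN1) was higher in HEP3B DMSO cells (11.56 ± 0.10) than in SNU-449 DMSO cells (10.75 ± 0.15). Replicate 2 of the SNU-449 DAAD-2 arrays stood apart in its RNA signal, since its GAPDH probe sets gave a 3′ value 1.99 above the 5′ value, against 0.34 to 0.97 on the other SNU-449 arrays. Among the HEP3B arrays this GAPDH difference was highest on DMSO replicate 1, at 1.51. The same difference for ACTB was 3.04 on SNU-449 DAAD-2 replicate 2 and highest, at 3.27, on HEP3B DAAD-2 replicate 3. In RNA pooled from a culture, fewer cells of one kind and less RNA per cell cannot be told apart.

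NRF2, encoded by NFE2L2, is the transcription factor at the centre of this defence. In resting cells KEAP1 binds NRF2 and delivers it to the proteasome, and electrophiles or oxidants that modify cysteines of KEAP1 let NRF2 accumulate, enter the nucleus with a small MAF partner and bind antioxidant response elements. Its known targets include the enzymes of glutathione synthesis, glutathione transferases, the thioredoxin system, enzymes that supply NADPH, and NQO1 and HMOX1. Liver cells hold much glutathione, which glutathione transferases couple to reactive compounds and glutathione peroxidases use to reduce peroxides. Thioredoxin reduces protein disulfides and peroxiredoxins, and both systems draw their electrons from NADPH.

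The core of the antioxidant response element was searched as TGACNNNGC on both strands in RefSeq promoter windows of 300 bases (GRCh38.p14, 250 bases before and 50 after a gene's start) to describe the sequence near the starts of these genes. Response elements farther from a start lie outside such a window. The windows covered 33 of the 41 genes, and 12 of them (36.4%) held a match, against 16.1% of 27305 genes with a window. Among windows, 13 of 47 held one (27.7%), against 13.3% of 35116 windows in all. The stretches below show, with the match in capitals, the glutathione synthesis gene GCLM and the thioredoxin reductase gene TXNRD1, whose values are given in both lines below, and ME1, which supplies NADPH. They are printed 5′ to 3′ on the gene's own strand, at chr1:93909432-93909488 (minus strand) for GCLM, chr12:104215656-104215712 and chr12:104286906-104286962 (plus strand) for the upstream and downstream TXNRD1 starts, and chr6:83431156-83431212 (minus strand) for ME1.
GCLM: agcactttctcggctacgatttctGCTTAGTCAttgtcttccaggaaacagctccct
TXNRD1, upstream start: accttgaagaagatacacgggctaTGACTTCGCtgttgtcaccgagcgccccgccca
TXNRD1, downstream start: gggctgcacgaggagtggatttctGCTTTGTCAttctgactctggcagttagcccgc
ME1: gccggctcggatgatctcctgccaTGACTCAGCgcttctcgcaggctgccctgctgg
The matches begin 34, 99, 102 and 137 bases before the start, in the order shown. Of the 4 genes called after DAAD-2 in SNU-449, CAT, TKT and UGDH have windows without a match, and the 60 bases before their starts are shown for comparison, at chr11:34438874-34438933 (plus strand), chr3:53256023-53256082 (minus strand) and chr4:39527440-39527499 (minus strand).
CAT: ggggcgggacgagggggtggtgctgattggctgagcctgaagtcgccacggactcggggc
TKT: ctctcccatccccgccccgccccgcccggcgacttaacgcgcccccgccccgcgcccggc
UGDH: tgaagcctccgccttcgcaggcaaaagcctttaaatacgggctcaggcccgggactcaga
The windows of the upstream TXNRD1 start and of ME1 each held another match, which is not printed, and the other genes with a match were CBR1, EPHX1, GPX2, GSTA4, GSTO1, GSTP1, KEAP1, MGST1 and PGD. NQO1, GCLC, SRXN1 and TXN have windows without a match, which says only that these letters are not in them. A match is a description of the sequence and does not show binding, and the called gene HMOX1 was not among the windows used.

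In SNU-449 cells after DAAD-2, 4 of the 41 genes rose and 0 fell. They were HMOX1, which opens the haem ring, UGDH, which makes the UDP-glucuronate used in glucuronidation, TKT, the transketolase of the pentose phosphate pathway, and CAT, the catalase that breaks down hydrogen peroxide. Of all genes, 1.82% were called higher and 0.561% lower in this comparison. At an unadjusted p under 0.05 there were 20 members higher and 1 lower (PGD), beside 9.42% and 7.18% of all genes, and the median difference was 0.27 over the members and 0.00 over all genes. The 3 DAAD-2 arrays lay above the 3 DMSO arrays for 18 members and below them for 2 (GSTA1 and PGD), beside 11.2% and 8.94% of all genes. The direction in SNU-449 follows the sample labels. In the study's own list of SNU-449 genes the headings of the fold columns and those of the group means run opposite ways, so that list does not settle the direction. If the labels of the SNU-449 arrays were exchanged, each DAAD-2 difference in that line would keep its size and turn its sign, and the comparisons between the lines, which use the same arrays, would change. Among the hepatocyte markers, the mean ranged over 5.34 to 5.44 on the SNU-449 DAAD-2 arrays and 4.94 to 5.25 on the SNU-449 DMSO arrays, without overlap, and the fibrinogen chain FGB averaged 11.62 with DAAD-2 and 10.06 with DMSO. The part of this shift in the members' differences was not tested.

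HMOX1 had values of 9.51, 9.22 and 9.39 on the SNU-449 DAAD-2 arrays, against 8.69, 8.61 and 8.62 on the DMSO arrays. Every DAAD-2 array was above every DMSO array, by 0.73 on average (SE 0.12), a fold of 1.66 (adjusted p = 0.0233). In HEP3B the same probe set was at 7.00, 7.30 and 7.24 with DAAD-2 and 6.96, 7.25 and 7.18 with DMSO, so that the groups overlapped, with a difference of 0.05 (95% interval -0.22 to 0.33, adjusted p = 0.879).

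NQO1, which reduces quinones by 2 electrons and is the standard readout of NRF2 activity, was at 12.48, 12.37 and 12.38 in SNU-449 DAAD-2 cells and 12.15, 12.07 and 12.01 in SNU-449 DMSO cells. The groups did not overlap, but the difference of 0.34 (SE 0.10) did not pass the test (adjusted p = 0.203). Another NQO1 probe set gave 0.53 (adjusted p = 0.0946) and the remaining one 0.02 (adjusted p = 0.971). In HEP3B, NQO1 was at 7.50, 7.33 and 7.30 with DAAD-2 and 7.22, 7.38 and 7.35 with DMSO, which overlap (difference 0.06, adjusted p = 0.825).

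UGDH reached 11.76, 11.59 and 11.65 in SNU-449 DAAD-2 cells, against 10.99, 10.65 and 11.10 in SNU-449 DMSO cells. All DAAD-2 arrays were higher, by 0.76 (SE 0.14), a fold of 1.69 (adjusted p = 0.0376). In HEP3B the values were 10.19, 10.04 and 10.18 with DAAD-2 and 9.91, 9.65 and 9.91 with DMSO, also without overlap, at a difference of 0.31 (SE 0.11) that did not pass (adjusted p = 0.230). Among the other enzymes of this kind in SNU-449, the carbonyl reductases CBR1 (0.01) and CBR3 (-0.16) and the epoxide hydrolase EPHX1 (0.66, adjusted p = 0.359) were not called. EPHX1 was at 7.28, 6.31 and 7.30 on the DAAD-2 arrays and 6.35, 6.55 and 6.02 on the DMSO arrays, and its low DAAD-2 value came from replicate 2.

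**Figure D1:**
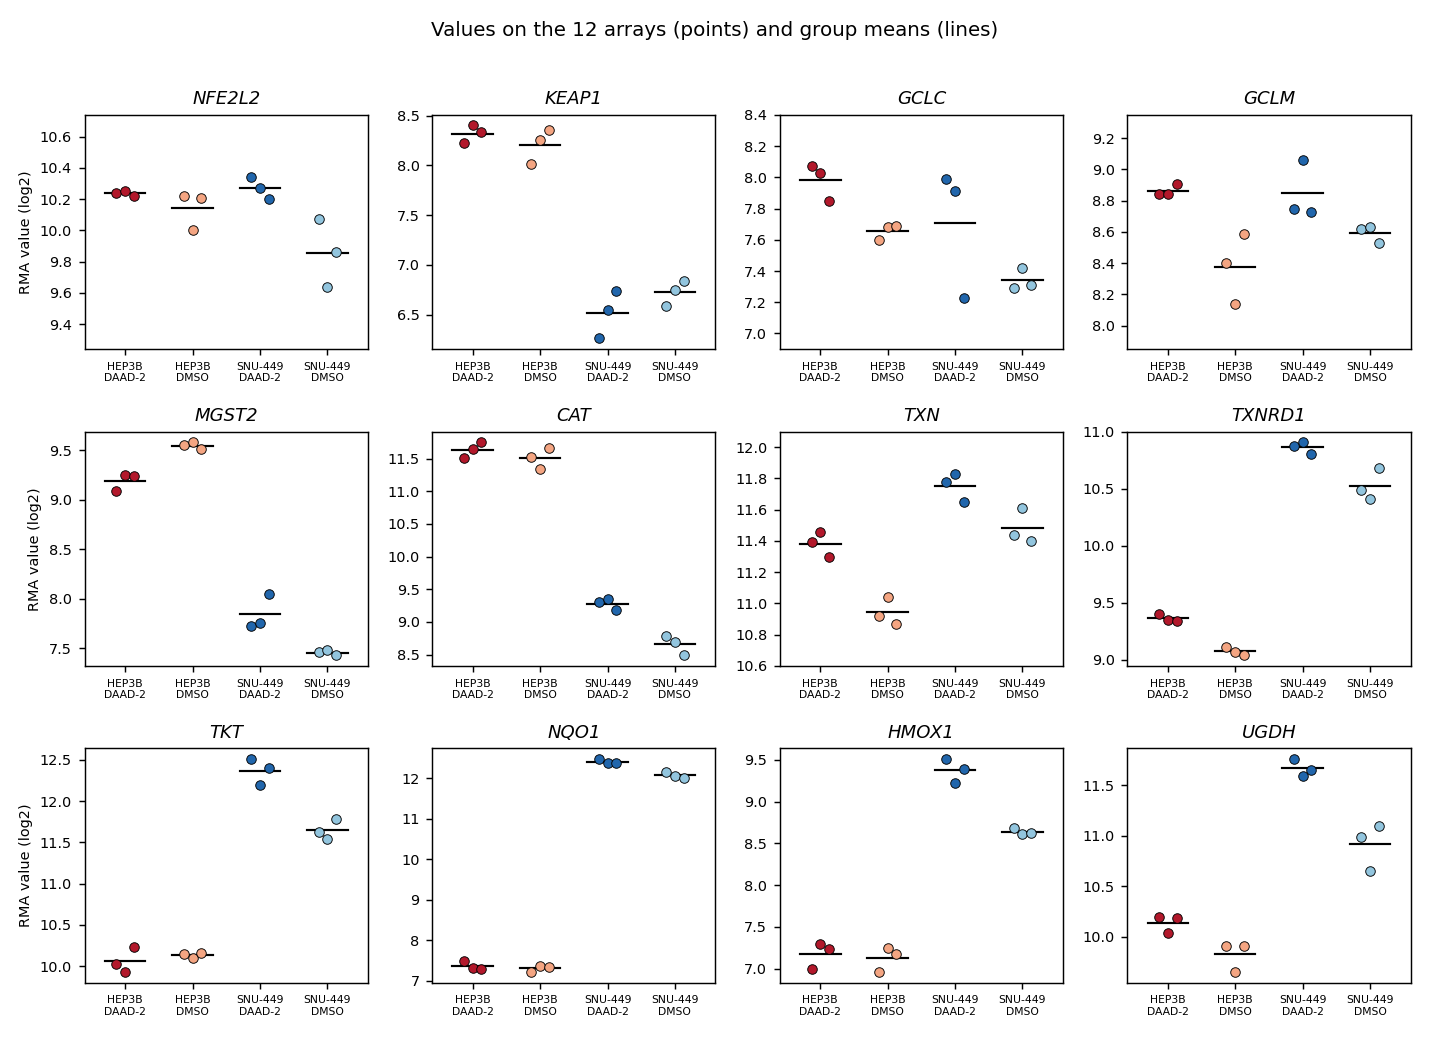
RMA values (log2, y axis, scaled per gene and not starting at 0) of 12 genes on the 12 arrays, as points, with group means as lines; groups from left to right are HEP3B DAAD-2, HEP3B DMSO, SNU-449 DAAD-2 and SNU-449 DMSO. HMOX1, UGDH, TKT and CAT lie higher with DAAD-2 than with DMSO on every SNU-449 array, and MGST2 lies above DMSO in SNU-449 and below it in HEP3B.

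Among the 4 genes of NADPH supply, TKT rose in SNU-449, and PGD, TALDO1 and ME1 were not called. TKT was at 12.51, 12.19 and 12.40 with DAAD-2, against 11.62, 11.54 and 11.78 with DMSO, all DAAD-2 arrays being higher, by 0.72 (SE 0.13), a fold of 1.64 (adjusted p = 0.0332). Of its other probe sets, 208699_x_at was also called (0.76, adjusted p = 0.0436) and 228205_at was not (0.38, adjusted p = 0.387). ME1, the cytosolic malic enzyme that yields NADPH, differed by 0.39 (adjusted p = 0.248), with all DAAD-2 arrays higher. TALDO1, the transaldolase of the same pathway as TKT, differed by 0.05. PGD, the 6-phosphogluconate dehydrogenase that yields NADPH, was at 8.12, 7.68 and 8.17 with DAAD-2 and 8.33, 8.60 and 8.28 with DMSO. All its DAAD-2 arrays were lower, by a difference of -0.41 (SE 0.16), which did not pass (adjusted p = 0.333).

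Among the peroxidases, catalase and superoxide dismutases, 1 of 9 rose in SNU-449. CAT was at 9.30, 9.35 and 9.18 with DAAD-2, against 8.78, 8.70 and 8.49 with DMSO, without overlap, at a difference of 0.62 (SE 0.12), a fold of 1.54 (adjusted p = 0.0461). Its other probe sets gave 0.76 (211922_s_at, adjusted p = 0.150) and 0.08 (215573_at, adjusted p = 0.851) and were not called. The glutathione peroxidases GPX1 (0.27), GPX2 (0.04), GPX3 (0.46) and GPX4 (0.38), of which GPX4 reduces lipid peroxides in membranes, and the peroxiredoxins PRDX1 (0.08) and PRDX6 (0.08) were not called, and DAAD-2 and DMSO arrays overlapped for all 6. The cytosolic superoxide dismutase SOD1 differed by -0.05. The single probe set used for the mitochondrial enzyme SOD2 was at 7.18, 4.42 and 7.41 with DAAD-2 and 4.09, 5.08 and 4.52 with DMSO. Replicates 1 and 3 were above all DMSO arrays and replicate 2 was not, so the difference of 1.77 had a standard error of 0.68 (adjusted p = 0.334). SOD2 also spread widely in HEP3B, at 6.35, 4.49 and 4.99 with DAAD-2 and 3.80, 6.01 and 4.83 with DMSO. GPX3 and GPX4 too had their lowest DAAD-2 value on replicate 2 of SNU-449, and the part of its RNA signal in these values was not tested.

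None of the 4 genes of glutathione synthesis and recycling was called in SNU-449, where 0 of the 4 also passed at an unadjusted p under 0.05. GCLC, the catalytic subunit of glutamate-cysteine ligase, was at 7.99, 7.91 and 7.23 with DAAD-2 and 7.29, 7.42 and 7.31 with DMSO. Replicate 3 with DAAD-2 was below all DMSO arrays and the others above them, and the difference was 0.37 (SE 0.19, adjusted p = 0.533). GCLM, the modifier subunit of the same ligase, was at 8.75, 9.06 and 8.73 with DAAD-2 and 8.62, 8.63 and 8.53 with DMSO. These groups did not overlap, with a difference of 0.25 (SE 0.12, adjusted p = 0.497), whereas its other probe sets gave -0.09 and -0.34. Glutathione synthetase (GSS) differed by -0.15 and glutathione reductase (GSR) by 0.27.

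No glutathione transferase was called in SNU-449, and 9 of 11 had a positive difference, with a median of 0.19. The membrane transferase MGST1 (0.52, adjusted p = 0.0815) and GSTA4 (0.50, adjusted p = 0.0784), which handles the lipid peroxidation product 4-hydroxynonenal, were the nearest to the threshold. GSTM3 (0.41), MGST2 (0.39), GSTK1 (0.28), GSTM4 (0.19), GSTO1 (0.18), GSTP1 (0.15) and MGST3 (0.04) were also positive, and GSTM2 (-0.11) and GSTA1 (-0.17) negative. The other probe set of GSTA4 gave 0.04 and that of GSTM3 -0.04, and the lowest of MGST1 and MGST3 gave -0.08 and -0.24. The other probe sets of GSTM4 (0.77), GSTO1 (0.08) and GSTA1 (0.20) were positive. The transferases of a class are close in sequence, so a probe set named for GSTM2 or GSTM4 may also read its relatives.

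The 3 genes of the thioredoxin system had differences of 0.27 to 0.34 in SNU-449, without a call. Thioredoxin reductase TXNRD1 was at 10.88, 10.91 and 10.81 with DAAD-2 and 10.49, 10.41 and 10.68 with DMSO (difference 0.34, SE 0.11, adjusted p = 0.245). SRXN1, the sulfiredoxin that repairs over-oxidised peroxiredoxins, was at 9.16, 8.98 and 8.99 with DAAD-2 and 8.80, 8.66 and 8.86 with DMSO (difference 0.27, adjusted p = 0.396). Thioredoxin itself (TXN) differed by 0.27 (adjusted p = 0.398). The DAAD-2 arrays lay above the DMSO arrays for all 3 genes. The other probe sets of TXNRD1 (-0.05) and TXN (0.77, adjusted p = 0.481), which lay under the median of all values (3.79) in SNU-449 DMSO cells, were not called.

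Of the regulators in SNU-449, SQSTM1, the autophagy receptor p62 that sequesters KEAP1, was nearest to a call, at 10.24, 10.15 and 10.19 with DAAD-2 and 9.75, 9.62 and 9.72 with DMSO. Its groups did not overlap, with a difference of 0.50 (SE 0.10, adjusted p = 0.0583). Of the other 4 probe sets of SQSTM1, 3 shared that sign, the lowest gave -0.42, and none was called. NFE2L2 was at 10.34, 10.27 and 10.20 with DAAD-2 and 10.07, 9.64 and 9.86 with DMSO (difference 0.41, SE 0.13, adjusted p = 0.212), again without overlap. The 3 probe sets of NFE2L2 ranged from 0.00 to 0.41. KEAP1 was at 6.26, 6.55 and 6.74 with DAAD-2 and 6.59, 6.75 and 6.84 with DMSO, which overlap (difference -0.21, adjusted p = 0.679). OSGIN1, an oxidative stress induced growth inhibitor, differed by 0.86 (SE 0.24, adjusted p = 0.144). NRF2 is controlled mainly at the level of its protein, which was not measured on these arrays.

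The SNU-449 calls were close to the threshold. Leaving out any 1 array other than DAAD-2 replicate 2 left 0 of the 41 genes called, while 0.314% to 1.36% of all genes were still called higher. Without DAAD-2 replicate 2, 7 were called higher (OSGIN1, GPX3, SOD2, TKT, HMOX1, EPHX1 and UGDH), beside 1.89% of all genes, and CAT was not among them.

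In HEP3B cells after DAAD-2, no member was called in either direction, and the same held for all genes (0% called). The highest member differences were in glutathione synthesis and the thioredoxin system, with GCLM at 0.49 and TXN at 0.44. At an unadjusted p under 0.05, 9 members were higher (GCLM, TXN, SQSTM1, GCLC, UGDH, TXNRD1, PRDX6, ME1 and SOD1) and 2 lower (MGST2 and CBR1), beside 13.6% and 6.63% of all genes. The arrays did not overlap for 11 members on the higher side and 3 on the lower, beside 15.9% and 10.3% of all genes. The median difference was 0.09 over the members and -0.01 over all genes. It was -0.07 when the deposited values were quantile normalized again or adjusted by cyclic loess, with 15 and 14 of the 41 genes positive in place of 26, so the sign of small differences in HEP3B depended on the scaling. The mean of the hepatocyte markers ranged over 10.49 to 10.64 on the HEP3B DAAD-2 arrays and 10.77 to 10.84 on the HEP3B DMSO arrays, without overlap. Of 4 leukocyte markers, lysozyme (LYZ) averaged 11.55 with DAAD-2 and 12.14 with DMSO, and PTPRC lay under the median of all values in both groups. CD79A averaged 5.14 with DAAD-2 and 5.40 with DMSO, and CD3E 4.40 with DAAD-2 and 4.35 with DMSO, above that median. The part of these shifts in the members' differences was not tested.

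TXN was at 11.39, 11.46 and 11.30 in HEP3B DAAD-2 cells, against 10.92, 11.04 and 10.87 in HEP3B DMSO cells. All DAAD-2 arrays were higher, by 0.44 (SE 0.10), a fold of 1.36 (adjusted p = 0.103). TXNRD1, which recycles it, was at 9.40, 9.35 and 9.34 with DAAD-2 and 9.11, 9.07 and 9.04 with DMSO (difference 0.29, SE 0.09, adjusted p = 0.177), also without overlap, while its dim other probe set gave -0.08. SRXN1 was at 7.83, 7.78 and 7.83 with DAAD-2 and 7.71, 7.73 and 7.73 with DMSO, a difference of 0.09 (adjusted p = 0.682) that was -0.08 after quantile normalization.

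In glutathione synthesis, GCLM was at 8.84, 8.84 and 8.91 in HEP3B DAAD-2 cells and 8.40, 8.14 and 8.59 in HEP3B DMSO cells. All DAAD-2 arrays were higher, by 0.49 (SE 0.12), a fold of 1.40 (adjusted p = 0.133), and its other probe sets gave 0.55 and 0.38. GCLC was at 8.07, 8.03 and 7.85 with DAAD-2 and 7.60, 7.68 and 7.69 with DMSO (difference 0.33, SE 0.10, adjusted p = 0.178), without overlap. Of the other 2 probe sets of GCLC, 1 shared that sign, and the lowest gave -0.08. GSR (0.29) and GSS (0.12) completed a group of 4 positive differences with a median of 0.31, which was 0.15 and 0.18 with 3 of 4 positive after quantile normalization and cyclic loess.

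Of the 11 glutathione transferases, 8 had a negative difference in HEP3B, with a median of -0.08. After quantile normalization and cyclic loess 10 of 11 were negative, with medians of -0.20 and -0.16, and with the arrays centred on their medians 7 were, with a median of -0.03. MGST2, a membrane transferase that also makes leukotriene C4, was at 9.09, 9.25 and 9.24 with DAAD-2 and 9.55, 9.58 and 9.51 with DMSO. All DAAD-2 arrays were lower, by a difference of -0.35 (SE 0.09), without a call (adjusted p = 0.142). GSTM4 (-0.34), GSTA1 (-0.25), GSTK1 (-0.25), GSTP1 (-0.14), GSTM2 (-0.08), MGST3 (-0.08) and MGST1 (-0.04) were also negative, and GSTA4 (0.00), GSTM3 (0.09) and GSTO1 (0.16) were not. The highest of the 5 probe sets of MGST1 gave 0.25. GSTA1 averaged 3.58 with DAAD-2 and 3.83 with DMSO, near the median of all values (3.79), where differences are of little weight.

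The peroxidases, catalase and superoxide dismutases ranged in HEP3B between -0.07 for PRDX1 and 0.40 for SOD2, where the SOD2 arrays overlapped. PRDX6, a peroxiredoxin that uses glutathione, differed by 0.29 (adjusted p = 0.184), SOD1 by 0.22 (adjusted p = 0.318) and GPX2 by 0.12, all without overlap. CAT was at 11.51, 11.64 and 11.75 with DAAD-2 and 11.52, 11.34 and 11.66 with DMSO, which overlap (difference 0.12, 95% interval -0.14 to 0.38). GPX4 differed by 0.16, GPX1 by 0.09 and GPX3 by 0.00. In NADPH supply, TKT was at 10.03, 9.93 and 10.23 with DAAD-2 and 10.15, 10.10 and 10.16 with DMSO, a difference of -0.07 with an interval of -0.30 to 0.17. ME1 differed by 0.29 (adjusted p = 0.293), TALDO1 by 0.02 and PGD by -0.10.

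The regulators and the remaining enzymes of HEP3B were not called either. NFE2L2 was at 10.24, 10.25 and 10.22 with DAAD-2 and 10.22, 10.00 and 10.21 with DMSO (difference 0.10), and KEAP1 at 8.22, 8.40 and 8.33 with DAAD-2 and 8.01, 8.25 and 8.35 with DMSO (difference 0.11). The sign of both was negative after quantile normalization and cyclic loess. The 3 probe sets of NFE2L2 ranged from -0.37 to 0.14 in HEP3B. SQSTM1 differed by 0.34 (adjusted p = 0.321) and OSGIN1 by -0.28. The 5 probe sets of SQSTM1 ranged from -0.05 to 0.44. CBR1 (-0.35), CBR3 (-0.28) and EPHX1 (-0.37) had negative differences, and CBR1 lay under the median of all values (3.79) in both HEP3B groups, where differences are of little weight.

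**Figure D2:**
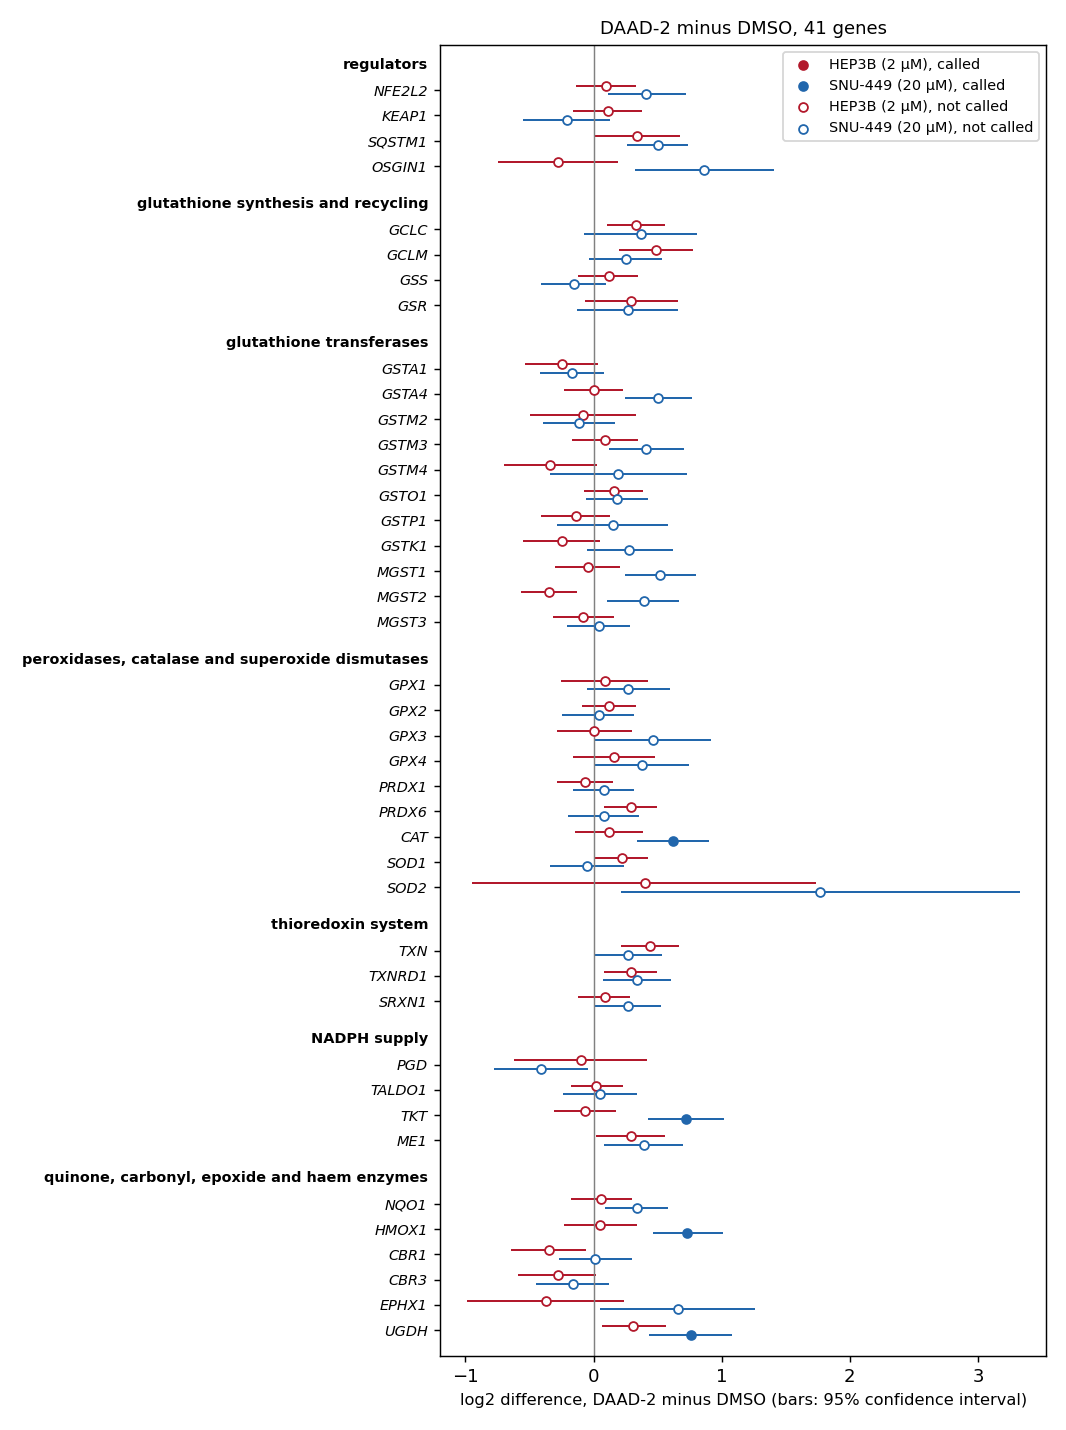
Log2 difference between DAAD-2 and DMSO (x axis) of the 41 genes, grouped by role, in HEP3B at 2 µM (red) and SNU-449 at 20 µM (blue), with 95% confidence intervals from limma; filled points have an adjusted p under 0.05. The filled points are those of CAT, TKT, HMOX1 and UGDH in SNU-449, and the widest intervals are those of SOD2.

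The effect of DAAD-2 differed between the lines for 2 members, MGST2 and TKT, and for both the difference was lower in HEP3B than in SNU-449. Of all genes, 1.82% had a higher effect in HEP3B and 1.46% a lower one at the same threshold. MGST2 had an effect of -0.35 in HEP3B and 0.39 in SNU-449, where its arrays were at 7.72, 7.76 and 8.05 with DAAD-2 and 7.46, 7.48 and 7.43 with DMSO. The DAAD-2 arrays were thus all below DMSO in HEP3B and all above it in SNU-449, and the difference of the effects was -0.74 (SE 0.15, adjusted p = 0.0219), although neither effect was called by itself. TKT had an effect of -0.07 in HEP3B and 0.72 in SNU-449, a difference of -0.79 (SE 0.16, adjusted p = 0.0274), and its probe set 208699_x_at gave -0.88 (adjusted p = 0.0251), while 228205_at gave -0.34 (adjusted p = 0.545). HMOX1 just missed the threshold, with effects of 0.05 and 0.73 in HEP3B and SNU-449 and a difference of -0.68 (SE 0.16, adjusted p = 0.0527).

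By role, the difference of the effects was negative for 10 of 11 glutathione transferases, with a median of -0.32 (9 to 11 of 11 under the other scalings, with medians of -0.49 to -0.27), and for 6 of 6 quinone, carbonyl, epoxide and haem enzymes, with a median of -0.40. These counts use 1 probe set per gene. The highest probe sets gave 0.34 for MGST1, 0.27 for GSTA4, 0.10 for GSTO1, 0.08 for GSTM3 and 0.05 for MGST3. Those of GSTA1 and GSTM4 stayed negative, and the highest of NQO1 gave 0.08. The difference of the effects was positive for 3 of 4 genes of glutathione synthesis and recycling, with a median of 0.13, which was -0.01 and -0.03 after quantile normalization and cyclic loess. The median was -0.05 for the thioredoxin system, -0.07 for NADPH supply and -0.19 for the peroxidases, catalase and superoxide dismutases, beside -0.18 over all members and -0.02 over all genes. Under the other scalings these medians ranged over -0.22 to -0.00 for the thioredoxin system, -0.23 to -0.02 for NADPH supply, -0.34 to -0.14 for the peroxidases, catalase and superoxide dismutases and -0.33 to -0.14 over all members. The 2 calls fell to 0 or 1 without any single HEP3B DMSO array, HEP3B DAAD-2 replicate 1 or 2, SNU-449 DAAD-2 replicate 1 or 3, or SNU-449 DMSO replicate 2 or 3. Without SNU-449 DAAD-2 replicate 2, 5 were (OSGIN1, MGST2, GPX3, TKT and HMOX1), beside 2.14% of all genes called lower. Of the genes called over the whole array, 55.6% were higher as deposited, 37.8% after quantile normalization and 34.6% after cyclic loess, and 4 and 5 members were then called lower.

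The DMSO controls of the lines, which are also the controls of the comparisons above, differed in more members than DAAD-2 changed in either line. In HEP3B DMSO cells 17 of the 41 genes were higher and 13 lower than in SNU-449 DMSO cells, beside 21.4% and 19.4% of all genes. The higher ones took in 6 of 11 transferases and 5 of 9 peroxidases, catalase and superoxide dismutases, and the lower ones all 3 thioredoxin genes and 5 of 6 quinone, carbonyl, epoxide and haem enzymes.

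NQO1 and the carbonyl reductases, which reduce quinones and carbonyl compounds with NADPH, were the lowest in HEP3B relative to SNU-449. NQO1 was at 7.22, 7.38 and 7.35 in HEP3B DMSO cells, against 12.15, 12.07 and 12.01 in SNU-449 DMSO cells, a difference of -4.76 (SE 0.10, adjusted p = 4.24e-09) or a level 27.1-fold higher in SNU-449. Its other probe sets gave -5.21 and -5.91. CBR1 was at 3.16, 3.34 and 3.58 in HEP3B DMSO cells, under the median of all values, and 7.93, 7.89 and 7.60 in SNU-449 DMSO cells. Its fitted difference of -4.45 rests on that dim level, so its size and its place in the order are uncertain. CBR3 differed by -2.84 (SE 0.13). The arrays of the lines did not overlap for any of these genes.

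HMOX1 (-1.51), TXNRD1 (-1.45), SRXN1 (-1.05), UGDH (-1.09) and TXN (-0.54) were also lower in HEP3B DMSO cells. The other probe sets of TXNRD1 and TXN, under the median of all values in both lines, gave -0.04 and -0.03. So were GSS (-1.34), the second enzyme of glutathione synthesis, and TKT (-1.52). SOD1 (-0.56) and TALDO1 (-0.38) were lower by less. GSTA1 was called lower by its brightest probe set (-0.32, adjusted p = 0.037) and higher by the other (203924_at, 0.98, adjusted p = 6.43e-05), so its direction depended on the probe set. The brightest one averaged 3.83 in HEP3B DMSO cells and 4.15 in SNU-449 DMSO cells, near the median of all values (3.79).

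GPX3, the secreted glutathione peroxidase, had the highest positive difference among the members, at 9.58, 9.95 and 9.69 in HEP3B DMSO cells and 5.58, 5.74 and 5.63 in SNU-449 DMSO cells (4.09, SE 0.12, adjusted p = 2.85e-08, a fold of 17.0). CAT was at 11.52, 11.34 and 11.66 in HEP3B DMSO cells and 8.78, 8.70 and 8.49 in SNU-449 DMSO cells (2.85, SE 0.12, a fold of 7.23). Of the 3 probe sets of CAT, 2 were called higher, and the lowest gave 0.08. GPX4 differed by 1.66 (SE 0.15), PRDX6 by 0.55 and PRDX1 by 0.45. The other probe set of PRDX6 gave 0.25 without a call. GPX1, GPX2 and SOD2 were not called.

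Among the transferases GSTA4 (2.56, a fold of 5.90), MGST2 (2.09) and MGST1 (1.71) stood highest in HEP3B relative to SNU-449, followed by GSTM3 (0.80), GSTM4 (0.71) and GSTO1 (0.35). Of the 5 probe sets of MGST1, 3 were called higher and the others were not (0.33 and 0.09). The other probe sets of GSTM3 (-0.11) and GSTO1 (0.31) were not called. GSTM2, GSTP1, GSTK1 and MGST3 were not called. EPHX1 (2.04), which hydrolyses epoxides in the endoplasmic reticulum of liver cells, PGD (0.93), ME1 (0.89) and GCLC (0.31) were higher in HEP3B as well, although the other probe sets of PGD gave -0.02 and -0.21 without a call. Of the 3 probe sets of ME1, 2 were called higher, and the lowest gave 0.05. For GCLC 1 of 3 was called, the lowest gave 0.06, and the call was lost with cyclic loess. KEAP1 was at 8.01, 8.25 and 8.35 in HEP3B DMSO cells and 6.59, 6.75 and 6.84 in SNU-449 DMSO cells (1.48, SE 0.12, adjusted p = 1.78e-05), without overlap, and OSGIN1 differed by 0.75. NFE2L2 was at 10.22, 10.00 and 10.21 in HEP3B DMSO cells and 10.07, 9.64 and 9.86 in SNU-449 DMSO cells, which overlap (0.28, adjusted p = 0.150). SQSTM1 gave 0.03 with its main probe set, but 2 of its 5 probe sets were called higher and 2 lower. GCLM and GSR were not called with their main probe sets, though the other 2 of GCLM were called lower (-0.97 and -1.62).

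**Figure D3:**
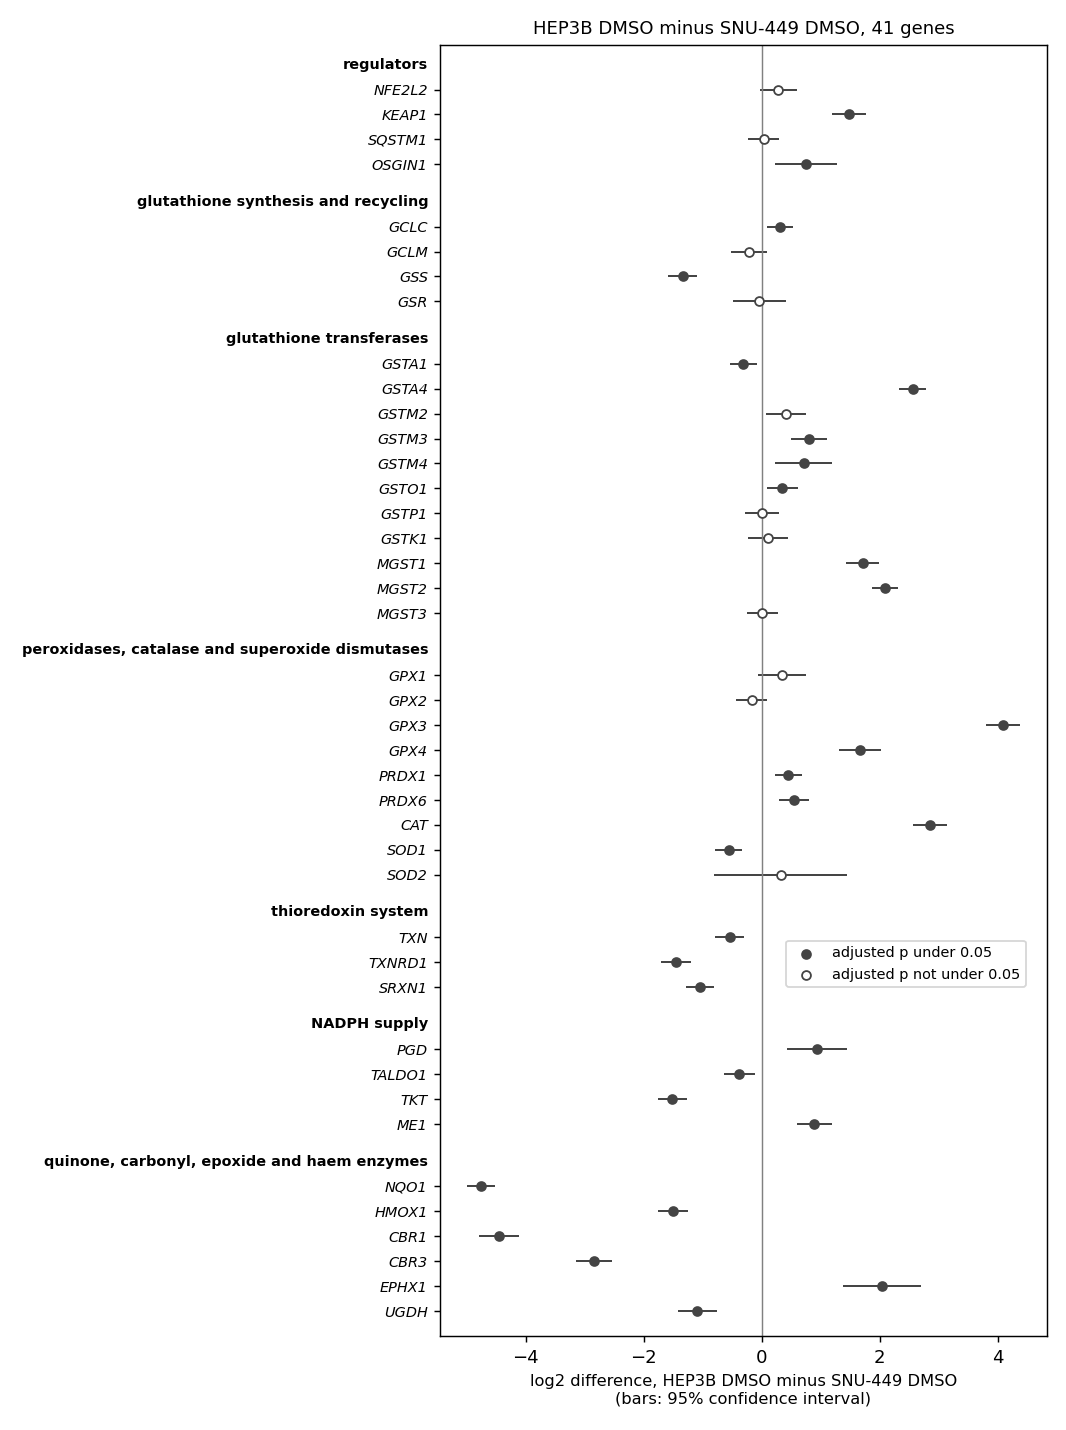
Log2 difference between HEP3B DMSO and SNU-449 DMSO (x axis, positive where HEP3B is higher) of the 41 genes, grouped by role, with 95% confidence intervals from limma; filled points have an adjusted p under 0.05. GPX3, CAT, GSTA4 and MGST2 lie farthest to the right, and NQO1, CBR1 and CBR3 farthest to the left, where the HEP3B level of CBR1 is under the median of all values and its place is uncertain.

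Other genes of these pathways were counted as a list of 66 that could be measured. The list was chosen with earlier results of these data known, so its share of calls is not independent of them. In SNU-449 after DAAD-2, 9 of the 66 were called higher and 1 lower, beside 1.82% and 0.561% of all genes, and the 4 with the largest rises were aldo-keto reductases, which reduce aldehydes and ketones with NADPH. AKR1B10 was at 7.46, 7.01 and 7.41 in SNU-449 DAAD-2 cells, against 4.40, 4.32 and 4.28 in SNU-449 DMSO cells (2.96, adjusted p = 0.000219). AKR1C3 rose by 1.34, AKR1C2 by 1.24 and AKR1C1 by 1.08, with no overlap of the arrays. The AKR1C genes are near copies of each other, and their probe sets may read more than 1 of them. TXNRD2, the mitochondrial thioredoxin reductase, was at 6.19, 6.03 and 5.89 with DAAD-2 and 6.74, 6.81 and 7.09 with DMSO, all DAAD-2 arrays lower (-0.84, adjusted p = 0.0252), while its cytosolic relative TXNRD1 was not called (0.34).

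In HEP3B none of the 66 was called. The smallest unadjusted p-values belonged to NFE2L3, an NRF2 relative (0.77, adjusted p = 0.077), SOD3, the extracellular superoxide dismutase (-0.66, adjusted p = 0.077), and GSTCD, which carries a glutathione transferase domain (0.52, adjusted p = 0.0904), with all arrays on one side of the controls for each. SOD3 averaged 3.73 in HEP3B DAAD-2 cells, under the median of all values (3.79), where differences are of little weight. AKR1B10 was at 3.03, 3.03 and 3.26 in HEP3B DAAD-2 cells and 3.50, 3.37 and 3.27 in HEP3B DMSO cells, under the median of all values in both groups. The effect differed between the lines for 11 of the 66 genes, 2 with a higher effect in HEP3B and 9 with a lower one, beside 1.82% and 1.46% of all genes.

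**Figure D4:**
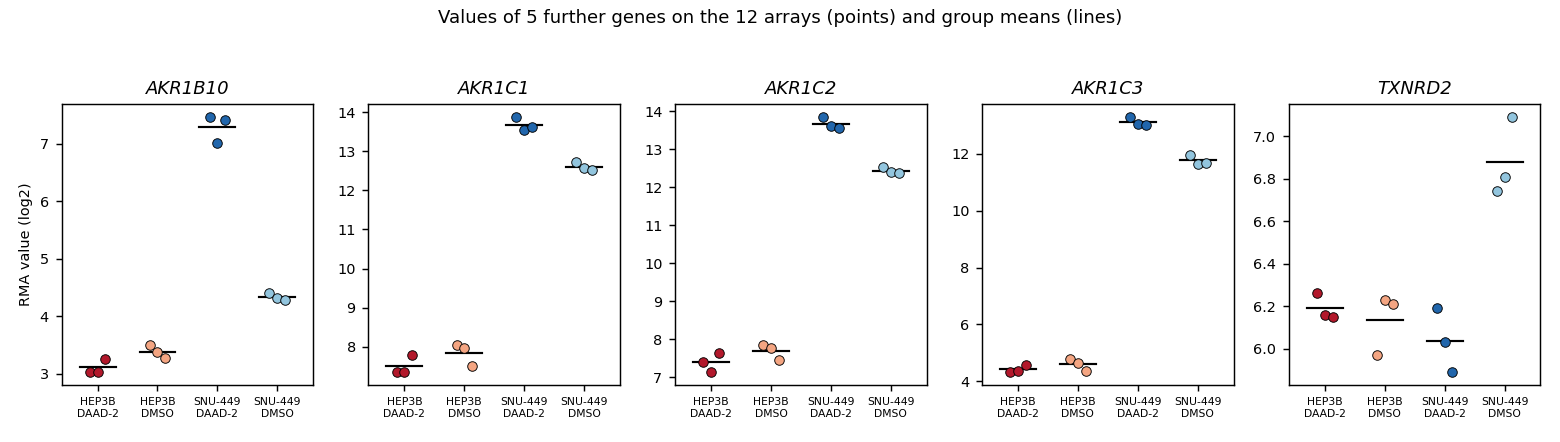
RMA values (log2, y axis, scaled per gene and not starting at 0) of AKR1B10, AKR1C1, AKR1C2, AKR1C3 and TXNRD2 on the 12 arrays, as points, with group means as lines; groups from left to right are HEP3B DAAD-2, HEP3B DMSO, SNU-449 DAAD-2 and SNU-449 DMSO. The aldo-keto reductases lie higher with DAAD-2 than with DMSO on every SNU-449 array, and TXNRD2 lies lower.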

How the data were processed

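The values analysed were the deposited log2 values, which the authors made with RMA (background correction, quantile normalization and one summary per probe set), of a version that the sources used here do not give. The study's methods name BRB Array Tools for normalization. RMA compresses the differences of dim genes. All 12 arrays were used and grouped by the sample labels. The 62 control probe sets were dropped and 54613 remained, with no filter on dim probe sets. Of these, 41091 carry 1 gene symbol in the platform annotation, 1801 several and 11721 none, and only those with 1 symbol were named. A further 5 probe sets name a member beside other genes and were not used. Depth has no counterpart on arrays, and their number, 3 a group, limits the precision.

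Each comparison was fitted with limma 3.58.1 (lmFit and eBayes, two-sided) in R 4.3.3 on the arrays of the groups compared, and the difference between the lines on all 12. The main fit of each comparison was tested on simulated data, and the alternative fits were not. The simulated differences were larger than those of the members called after DAAD-2, so recovery of differences of that size was not tested. With 3 arrays a group, an exact permutation p cannot fall below 0.1. Values on every array are given for NFE2L2, KEAP1, NQO1, HMOX1, GCLC, GCLM, TXNRD1 and SRXN1, for members called after DAAD-2, and for the 5 with the smallest p per line. For the lines, the 8 called members with the largest difference in each direction were named, and for other genes at most 4 called per direction, or the 3 with the smallest p. Further members were named by value to account for all. The members and lists were chosen with earlier results of these data known. Same-numbered arrays were not paired in the main fits. Alternatives were the replicate block, 1 fit over all arrays, a filter on dim probe sets, other scalings, other variance models, other probe set rules, a rule of fold above 1.5 with an unadjusted p under 0.05, and each array left out. Promoter windows and figures were handled in Python 3.11.15 with pandas 2.3.3, numpy 2.4.6 and matplotlib 3.10.9.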

Additional observations from a re-analysis of the deposited data

Results flagged for a closer look

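The effect of DAAD-2 differed between HEP3B (2 µM) and SNU-449 (20 µM) by the interaction term of limma for 8 of the named genes, where line and dose cannot be told apart. Among the members these were MGST2, with a difference of -0.74 (adjusted p = 0.0219) between effects of -0.35 in HEP3B and 0.39 in SNU-449, and TKT, with -0.79 (adjusted p = 0.0274) between -0.07 in HEP3B and 0.72 in SNU-449. Among the other genes of the pathway, AKR1B10 differed by -3.23 (adjusted p = 5.33e-06), AKR1C3 by -1.53 (adjusted p = 0.00199), AKR1C2 by -1.54 (adjusted p = 0.00338) and AKR1C1 by -1.42 (adjusted p = 0.00863). AKR1B10 lay under the median of all values in both HEP3B groups, so its effect there, and the size of its difference, are uncertain. TXNRD2 differed by 0.89 (adjusted p = 0.0194), with an effect of 0.05 in HEP3B and -0.84 in SNU-449, and SOD3 by -0.75 (adjusted p = 0.0483), with -0.66 in HEP3B and 0.09 in SNU-449. SOD3 averaged 3.73 in HEP3B DAAD-2 cells, under the median of all values (3.79), so the size of its difference is uncertain too.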

How the results depend on the processing

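The counts between the DMSO controls kept within 1.5 times of 17 higher and 13 lower under every alternative, at 13 to 17 and 11 to 12 when single arrays were left out, and 239 of 240 alternative values of the named members kept their direction and call. The exception was MGST1, at 0.33 (adjusted p = 0.093) without _x_at and _s_at probe sets, in place of 1.71. The other calls of members rest on 3 arrays a group and lie near the threshold. The count of 4 members higher in SNU-449 became 0 with the replicate block, 1 with quantile normalization (HMOX1), 2 with cyclic loess (CAT and HMOX1), 7 by fold and unadjusted p, and 0 to 7 without single arrays. The count of 2 members with a lower effect in HEP3B became 0 with the replicate block, 4 with quantile normalization, 5 with cyclic loess, 4 with trend and robust moderation, 5 by fold and unadjusted p, 1 without _x_at and _s_at probe sets, and 0 to 5 without single arrays. In HEP3B 1 member (TXN) was called with trend and robust moderation (adjusted p = 0.0315) and 0 with any single array left out. The labels do not say whether same-numbered arrays were paired. Their deviations from the group means correlated at -0.08 to -0.01 in SNU-449, -0.27 to 0.09 in HEP3B and 0.02 to 0.21 between the DMSO controls. Such correlations do not settle whether the arrays were paired. Without single arrays the adjusted p ranged over 0.0213 to 0.124 for HMOX1, 0.0282 to 0.155 for TKT, 0.0482 to 0.156 for UGDH and 0.0673 to 0.211 for CAT in SNU-449, and over 0.0167 to 0.0683 for MGST2 and 0.0114 to 0.0821 for TKT between the lines.

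Among the named members, signs turned under these alternatives only for differences that were not called. In HEP3B, after quantile normalization and cyclic loess, NFE2L2 was -0.03 and -0.05, KEAP1 -0.04 and -0.02, NQO1 -0.10 and -0.09, HMOX1 -0.11 and -0.10, and SRXN1 -0.08 and -0.07, and CAT was -0.02 with cyclic loess. With the mean of a gene's probe sets NFE2L2 was -0.04 in HEP3B and GCLM -0.06 in SNU-449, and TKT was 0.04 in HEP3B without _x_at and _s_at probe sets. Without single arrays HEP3B differences ranged from -0.03 to 0.14 for HMOX1 and -0.00 to 0.10 for NQO1, and the difference between the lines from -0.28 to 0.10 for GCLC and -0.13 to 0.01 for TXNRD1. GCLC was 0.01 between the lines after centring of the arrays. The cause of these changes was not tested.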

Other observations

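Several other genes of these pathways, chosen here after their values had been seen, also changed in SNU-449 cells after DAAD-2. BLVRB, a biliverdin reductase, was at 9.70, 9.37 and 9.62 with DAAD-2 and 8.49, 8.76 and 8.31 with DMSO (1.04, adjusted p = 0.0166). MSRB2, a mitochondrial methionine sulfoxide reductase, rose by 0.69 (adjusted p = 0.0328) and FTL, the light chain of the iron store ferritin, by 0.59 (adjusted p = 0.0327). The export pumps ABCC3 (0.60, adjusted p = 0.0326) and ABCC4 (0.64, adjusted p = 0.0343), which carry conjugates out of the cell, rose as well. In HEP3B none of these was called, and ABCC4 differed there by 0.44 (adjusted p = 0.103) with all DAAD-2 arrays higher. GLRX, a glutaredoxin, was at 9.78, 9.65 and 9.88 in HEP3B DAAD-2 cells and 10.25, 10.07 and 10.17 in HEP3B DMSO cells, and at 10.68, 10.66 and 10.65 in SNU-449 DAAD-2 cells and 10.30, 10.43 and 10.28 in SNU-449 DMSO cells. Its arrays thus lay on opposite sides of the controls, and the difference of the effects was -0.72 (adjusted p = 0.0189), with neither effect called by itself.

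Between the DMSO controls, wide differences among these other genes, also chosen by value, included those of AKR1C3 (-7.17, adjusted p = 3.07e-09), AKR1C1 (-4.76, adjusted p = 4.3e-08) and AKR1C2 (-4.73, adjusted p = 1.67e-08), which were lower in HEP3B, and of TXNIP (4.22, adjusted p = 4.62e-08), which was higher. GPX8 was also called lower in HEP3B, at 3.08 in HEP3B DMSO cells and 9.11 in SNU-449 DMSO cells. GPX7, at 7.81 in HEP3B DMSO cells and 3.39 in SNU-449 DMSO cells, and SESN3, at 8.01 in HEP3B DMSO cells and 2.91 in SNU-449 DMSO cells, were called higher. The lower level of each of these 3 genes is under the median of all values (3.79), so the size of the difference is uncertain. GPX7 and GPX8 are peroxidases of the endoplasmic reticulum, TXNIP binds and inhibits thioredoxin, and SESN3 is a stress-induced sestrin.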
